A study of Mus musculus with 6 samples.

Results

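The genes described here encode the insulin-like growth factors (IGFs) and the proteins that hold or clear them: the ligands Igf1 and Igf2, the receptor Igf2r, and the binding proteins Igfbp2, Igfbp3, Igfbp4, Igfbp5, Igfbp6 and Igfbp7. They were picked by name, 9 genes of the 55536 in the count table, and all 9 were found once each. Polyadenylated RNA of whole isolated pancreatic islets was sequenced from 6 libraries. The 3 control libraries came from Klf4+/+;Gcg-iCre mice and the 3 knockout libraries from Klf4fl/fl;Gcg-iCre mice, so both groups carry the Cre driver. Gcg-iCre puts Cre recombinase under the glucagon gene, which is active in alpha cells, so Klf4 was targeted in a cell type that is a minority of the islet, while every islet cell type gave RNA. The design text gives the strain as C57B1/6J, and the labels give neither the age and sex of the animals nor whether animals were pooled.

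IGF1 and IGF2 are secreted peptides related to insulin. They act through the IGF1 receptor and, for IGF2, also the insulin receptor, both of which are tyrosine kinases that feed the PI3K and AKT pathway of growth and survival. Most IGF outside cells is bound to an IGF-binding protein, which lengthens its life and keeps it from the receptors until a protease cuts the carrier. In the islet this system is studied for its part in the growth and survival of beta cells.

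Library totals ran from 101277200 to 110243918 counts. Klf4 itself was at 2015 to 3148 normalized counts in the control libraries and 2277 to 2540 in the knockout libraries, where a normalized count is the deposited count divided by the library's DESeq2 size factor. The ranges overlapped, and Klf4 did not pass the test (log2 fold change -0.17 ± 0.15 SE, DESeq2 adjusted p = 0.774). Without control replicate 3 it was -0.34 and passed (adjusted p = 0.00568), and without control replicate 1 it was -0.038 (adjusted p = 0.964). Xist was at 77938 to 108105 normalized counts in controls and 12.4 to 30.2 in knockouts, while Ddx3y was at 0 counts in every control and 5599 to 6265 normalized counts in knockouts. In every comparison below, genotype and sex cannot be told apart. The insulin gene Ins2 and the glucagon gene Gcg were abundant in all 6 libraries. Gcg was lower in every knockout library than in every control library and fell by 0.56 ± 0.13 (SE) on the log2 scale (adjusted p = 0.00332 in DESeq2, 0.402 in edgeR), while Ins2 did not pass (0.024 ± 0.071). Summed counts of 8 acinar enzyme genes ran from 539631 to 1091300 in controls and from 1369250 to 1951500 in knockouts, without overlap. Even so, 0 of the 8 passed in DESeq2, beside 2.19% of all genes, and 0 passed in edgeR. An unadjusted DESeq2 p under 0.05 was found for 7 of the 8, beside 11.5% of all genes. Knockout replicate 1 stood apart by its liver transcripts: 8 hepatocyte genes summed to 92498 normalized counts there, to 3075 in knockout replicate 2, and to between 220 and 511 in the other 4 libraries.

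Of the 9 genes, 1 passed an adjusted p of 0.05 over all genes in DESeq2, and it was higher in the knockout libraries: Igfbp6. Over all 17797 genes given an adjusted p, 389 passed, which is 2.19%, with 1.53% higher and 0.657% lower. The edgeR quasi-likelihood test called 0 of the 9 and 0.115% of all 25210 genes it tested. The median log2 fold change of the 9 genes was 0.17, with 6 above and 3 below 0, beside -0.0061 over all genes given an adjusted p. Groups did not overlap for 3 of the 9, Igfbp6, Igfbp5 and Igf2, against 17.3% of those genes. An unadjusted p under 0.05 was found for 4 of the 9, Igfbp2, Igfbp3, Igfbp5 and Igfbp6, against 11.5%.

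**Figure D1:**
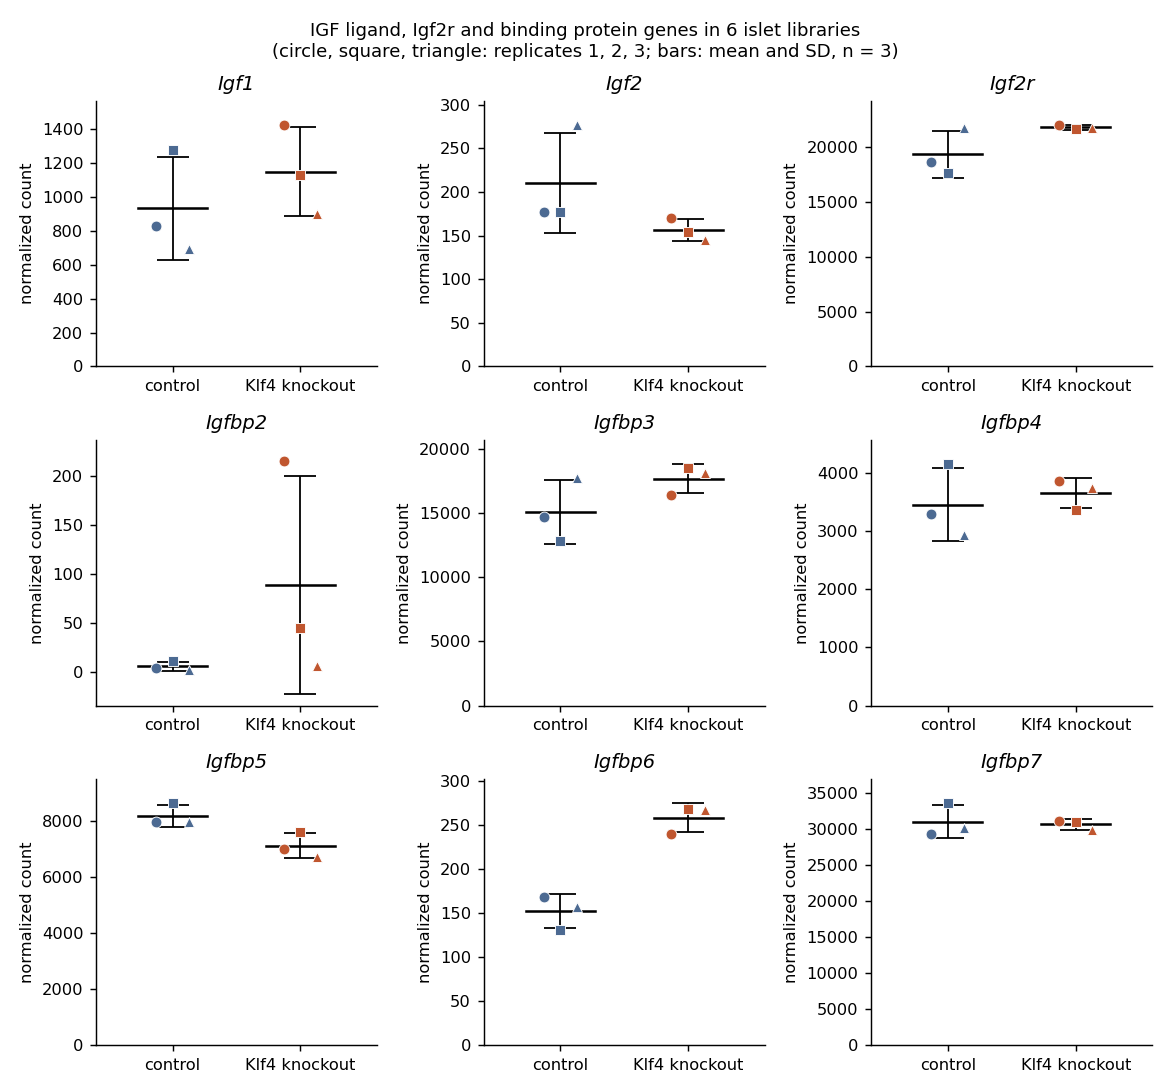
Normalized counts (vertical axes, each on its own linear scale) of the 9 genes in 3 control and 3 knockout libraries; points are libraries, horizontal lines group means and error bars the SD (n = 3). The groups are apart for Igfbp6, Igfbp5 and Igf2, and for Igfbp2 knockout replicate 1, at 215, is far above the other libraries.

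Igfbp6, which encodes a carrier that prefers IGF2 over IGF1, lies on chromosome 15 from 102144362 to 102149511 on the plus strand (ENSMUSG00000023046, GRCm38). It stood at 169, 131 and 157 normalized counts in the controls (replicates 1 to 3) and 240, 268 and 267 in the knockouts. Every knockout library was above every control library. From 152 ± 19.5 in controls it went to 258 ± 16.1 in knockouts (mean ± SD, n = 3 each), a rise of 0.77 ± 0.20 (SE) on the log2 scale, or 1.70-fold, with an adjusted p of 0.0133 in DESeq2. Its 95% confidence interval ran from 29.0% to 124% higher. The size hardly moved with the processing, from 0.67 to 0.85 on the log2 scale, but the call did. The edgeR adjusted p was 0.21, and DESeq2 gave 0.0725 without control replicate 2 and 0.0641, 0.0742 and 0.105 without knockout replicates 1, 2 and 3. Across 12 alternatives, with the replicate block left aside, it lay between 0.00948 and 0.21.

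The window around its RefSeq start is shown because Igfbp6 is the gene that passed, and that of Igfbp5 because its groups were also apart, in the other direction. Both are RefSeq sequences of GRCm38.p6, from 250 bases before to 50 bases after the start, printed 5′ to 3′ on the gene's strand. They lie at chr15:102143936-102144235 on the plus strand for Igfbp6 and at chr1:72874816-72875115 on the minus strand for Igfbp5. The RefSeq start of Igfbp6 lies 176 bases upstream of the gene start given above, which is outside the window, while the Igfbp5 window holds both starts. Capitals mark CACCC or its complement GGGTG, the core of the boxes that Krüppel-like factors such as KLF4 bind, and TATAAA or its complement TTTATA.
Igfbp6: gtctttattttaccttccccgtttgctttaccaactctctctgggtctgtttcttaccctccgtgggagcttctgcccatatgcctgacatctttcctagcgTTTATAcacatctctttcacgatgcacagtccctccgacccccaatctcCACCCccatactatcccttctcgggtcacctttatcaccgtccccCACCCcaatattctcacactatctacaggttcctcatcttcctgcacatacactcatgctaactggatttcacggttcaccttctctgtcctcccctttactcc
Igfbp5: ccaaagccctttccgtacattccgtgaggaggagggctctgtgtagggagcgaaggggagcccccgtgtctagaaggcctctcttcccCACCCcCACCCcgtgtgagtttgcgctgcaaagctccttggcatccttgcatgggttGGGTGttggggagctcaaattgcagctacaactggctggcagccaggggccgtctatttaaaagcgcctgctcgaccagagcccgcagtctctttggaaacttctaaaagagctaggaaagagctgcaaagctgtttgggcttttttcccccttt
CACCC, searched on both strands, was found 2 times in the Igfbp6 window and 3 times in the Igfbp5 window, and no marked match overlaps another. At least 2 matches were present in 25.7% of all 32851 windows of this length, and at least 3 in 9.35%, so such matches are common. RefSeq gave 13 windows for the 9 genes, 10 of which held CACCC, beside 57.5% of all windows. The Igf1 and Igfbp7 windows and 1 of the 4 Igf2 windows held none. TTCNNNGAA, the pattern that STAT5 binds, was in 0 of the 13 windows and in 8.3% of all windows, and TATAAA in 2 of the 13 and in 13.6%. These are matches of letters in a short window, and binding was not measured.

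Igfbp6 is a gene of fibroblasts and other mesenchymal cells, and some markers of those cells were also higher in the knockouts. Of 10 mesenchymal markers, 5 passed higher in DESeq2 and 0 lower, beside 1.53% and 0.657% of all genes, and 3 of the 10 passed in edgeR. The log2 fold changes of these 5 were 0.96 for Col1a1, 0.89 for Col1a2, 0.87 for Pdgfra, 0.78 for Col3a1 and 0.46 for Dcn, and that of Igfbp6, 0.77, lay within this range, while the median of all 10 was 0.39. The next 4 markers were picked out after their values were seen. Acta2, the smooth muscle actin gene, was lower in every knockout library than in every control library (-0.29 ± 0.11 SE on the log2 scale) but did not pass (DESeq2 adjusted p = 0.168), and the pericyte markers Rgs5, Cspg4 and Pdgfrb had log2 fold changes of -0.068, 0.079 and 0.13. The summed level of the 10 ran from 85393 to 98049 normalized counts in controls and from 127101 to 132593 in knockouts, and no marker was near 0. Relative to the mean of all 10 in its own library, Igfbp6 was at -4.95 ± 0.27 (log2) among the controls and -4.61 ± 0.10 among the knockouts (SD, n = 3 each), without overlap (exact two-sided permutation p = 0.1, the smallest that 3 against 3 allows). That mean includes Acta2 and the pericyte markers. In bulk islets, more cells of a type and more RNA per cell cannot be told apart. The 2 genes with the closest pattern over the 6 libraries, among 15810 with a mean of at least 50 normalized counts, were Gcnt1 and Xdh. Their root mean square differences from Igfbp6, on centred log2(normalized count + 1), were 0.081 and 0.089. Gcnt1, a glycosyltransferase gene, rose by 0.66 ± 0.15 (SE) on the log2 scale (adjusted p = 0.0025 in DESeq2), and Xdh, which encodes xanthine dehydrogenase, by 0.81 ± 0.10 (adjusted p = 6.14e-12). Both were picked for matching a gene whose groups were apart, so their own rise follows largely from the choice.

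Among the ligands, Igf1 (chromosome 10, 87858265 to 87937042) stood at 829, 1277 and 694 normalized counts in the controls (replicates 1 to 3) and 1426, 1128 and 898 in the knockouts. The groups overlapped: control replicate 2 lay above knockout replicates 2 and 3. The means were 933 ± 305 and 1151 ± 265 (SD, n = 3 each), and the log2 fold change of 0.30 ± 0.22 (SE) did not pass (DESeq2 adjusted p = 0.683). Its 95% interval spanned -8.26% to 65.7%. It was 0.60 without control replicate 2, 0.13 without control replicate 3 and 0.12 without knockout replicate 1, none of which passed. Macrophages and fibroblasts are known sources of Igf1, and so is the liver. Igf1 was highest in knockout replicate 1, the library with the most liver transcripts. The part of liver RNA in the Igf1 counts was not tested. Of 9 macrophage markers, 4 passed higher in DESeq2 (Cd68, C1qb, C1qc and Mrc1), beside 1.53% of all genes, and 0 passed in edgeR. C1qa, the most abundant of the 9 and named after its values were seen, was at -0.27 ± 0.13 (SE) on the log2 scale and did not pass (adjusted p of 0.348 in DESeq2). The summed level of the 9 was 11517 to 12624 normalized counts in controls and 12086 to 14181 in knockouts. Igf1 relative to the mean of these markers showed a log2 difference of 0.56 ± 0.53 among controls and 0.50 ± 0.26 among knockouts (exact two-sided permutation p = 0.9).

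Igf2 (chromosome 7, 142650766 to 142666816, minus strand), the growth factor of fetal life and an imprinted gene, was scarce in these islets. Control replicates 1 to 3 held 178, 177 and 277 normalized counts, and knockout replicates 1 to 3 held 170, 154 and 145. The groups did not overlap, but the closest libraries were only a few counts apart and control replicate 3 set the distance between the means, 210 ± 57.6 and 156 ± 12.8 (SD, n = 3 each). The log2 fold change was -0.43 ± 0.25 (SE, DESeq2 adjusted p = 0.542), and without control replicate 3 it was -0.18 (adjusted p = 0.759). Of the Igf2 exon bases, 64.55% are shared with other annotated genes, nearly all with Gm49394 on the same strand, which held 1 to 12 counts per library, and the rest with the antisense Igf2os, so the Igf2 count is uncertain. H19, the imprinted non-coding RNA next to it, held 12 to 48 counts per library and its log2 fold change was -0.61 ± 0.71 (SE, DESeq2 adjusted p = 0.861), with values from -1.53 (without knockout replicate 2) to -0.19 (without control replicate 3) when libraries were left out in turn.

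Igf2r (chromosome 17, 12682406 to 12769664, minus strand) encodes the receptor that carries IGF2 to lysosomes for breakdown and sorts lysosomal enzymes by their mannose 6-phosphate tag, without kinase activity. It stood at 18606, 17573 and 21685 normalized counts in the controls (replicates 1 to 3) and 21967, 21597 and 21659 in the knockouts. The knockout libraries agreed closely, with a coefficient of variation of 0.913%, against 11.1% in controls, and control replicate 3 lay among them. The log2 fold change was 0.17 ± 0.088 (SE, DESeq2 adjusted p = 0.435). Without control replicate 2 it was 0.11 (adjusted p = 0.846). Without control replicate 3 it was 0.27 with an adjusted p of 4.71e-05, within 4.71e-05 to 0.906 across the unblocked alternatives, so 1 library decided the call.

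The signalling receptors did not pass either. Igf1r had group ranges of 15080 to 18207 and 16540 to 19151 normalized counts, and its log2 fold change was 0.11 ± 0.092 (SE, DESeq2 adjusted p = 0.755). Insr, the insulin receptor, was at 10958, 9375 and 10502 in controls and at 11701, 11549 and 12265 in knockouts, without overlap, and its log2 fold change of 0.20 ± 0.081 (SE) had an adjusted p of 0.205. Over the list of 30 receptor and signalling genes, 0 passed in DESeq2 and 0 in edgeR, and the median log2 fold change was 0.026. An unadjusted DESeq2 p under 0.05 was found for 4 of the 30, beside 11.5% of all genes given an adjusted p. Groups did not overlap for 5 of the 30, beside 17.3%, so both counts were near the share over all genes.

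**Figure D2:**
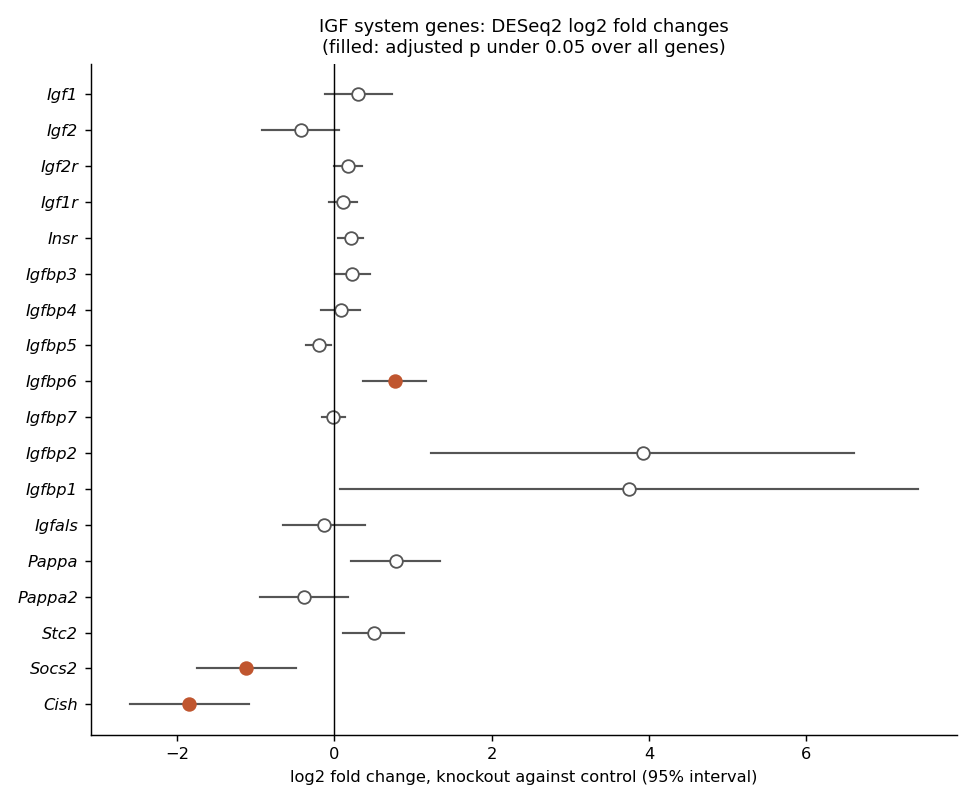
DESeq2 log2 fold changes (horizontal axis, knockout against control, lines are 95% intervals, n = 3 per group) of IGF ligands, receptors, binding proteins, proteases and 2 genes listed under the growth hormone axis. Filled points, Igfbp6, Socs2 and Cish, passed an adjusted p of 0.05 over all genes; the intervals of Igfbp2 and Igfbp1 are the widest of those drawn.

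Igfbp3 and Igfbp5 are the carriers that also form the large complex with the acid-labile subunit in blood. Igfbp3 (chromosome 11, 7206086 to 7213923, minus strand) stood at 14694, 12836 and 17695 normalized counts in the controls (replicates 1 to 3) and 16379, 18500 and 18122 in the knockouts. Control replicate 3 lay above knockout replicate 1, so the groups overlapped. The log2 fold change was 0.23 ± 0.11 (SE, DESeq2 adjusted p = 0.406). Leaving out control replicate 3 again made it pass, at 0.36 with an adjusted p of 0.00128 (0.00128 to 0.876 across the unblocked alternatives). Without control replicate 2 it was 0.13 (adjusted p = 0.876). Endothelial cells are a known source of Igfbp3, and of 9 endothelial markers 0 passed in DESeq2 or edgeR. An unadjusted DESeq2 p under 0.05 was found for 1 of the 9, beside 11.5% of all genes. All 9 log2 fold changes were above 0, with a median of 0.12.

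Igfbp5 (chromosome 1, 72857932 to 72874884, minus strand) stood at 7957, 8640 and 7960 normalized counts in the controls (replicates 1 to 3) and 7020, 7619 and 6731 in the knockouts. Every knockout library was below every control library, with means of 8186 ± 394 and 7123 ± 453 (SD, n = 3 each). The log2 fold change of -0.20 ± 0.080 (SE) did not pass over all genes (DESeq2 adjusted p = 0.206), nor under any of the alternatives run, where the adjusted p ran from 0.0775 to 0.717. Its 95% interval ran from -21.9% to -3.02%.

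The groups overlapped for Igfbp4 and Igfbp7. Igfbp4 (chromosome 11, 99041244 to 99054392), a carrier cut by the protease PAPPA, stood at 3288, 4148 and 2924 normalized counts in the controls (replicates 1 to 3) and 3857, 3366 and 3738 in the knockouts. The knockout values lay inside the control range, and the log2 fold change was 0.081 ± 0.13 (SE, DESeq2 adjusted p = 0.916). Igfbp7 (chromosome 5, 77349240 to 77408041, minus strand), a vascular matrix protein that binds IGFs weakly, was at 29263, 33577 and 30216 in controls and at 31077, 31029 and 29835 in knockouts. Its log2 fold change was -0.017 ± 0.075 (SE, adjusted p = 0.977), with a 95% interval from -10.8% to 9.38%. An overlap of 85 exon bases with Polr2b on the opposite strand covers 7.03% of Igfbp7.

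To compare genes with each other, normalized counts were divided by the kilobases of annotated exon. On that scale Igfbp7 was the most abundant of the 9 genes in every library, at 24205 to 27772 per kilobase, followed by Igfbp3 at 4101 to 5910, Igf2r at 1888 to 2360, Igfbp5 at 1121 to 1439 and Igfbp4 at 662 to 939. These 5 ranges did not overlap. Igfbp6 followed at 117 to 241 per kilobase and Igf1 at 70.1 to 144, and those ranges did overlap. Igf2 at 25.3 to 48.4 and Igfbp2 at 1.15 to 117 could not be ordered. Igf1r, at 898 to 1141 per kilobase, and Insr, at 682 to 892, lay in the range of Igfbp4 and Igfbp5, well above either ligand.

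Within the pool of Igfbp2 to Igfbp7, counted per kilobase, Igfbp7 held 78.3% ± 2.31 among controls and 76.2% ± 0.886 among knockouts (SD, n = 3 each), and Igfbp3 held 14.8% ± 2.67 and 17.0% ± 1.09. Both shares overlapped between the groups (exact two-sided permutation p = 0.2 each). The Igfbp3 difference, 2.20 percentage points, was 0.792 without control replicate 2 and 3.45 without control replicate 3. The Igfbp7 difference, -2.12, was -0.863 and -3.13 in the same 2 cases. The share of Igfbp5 was 4.16% ± 0.108 against 3.56% ± 0.164, and that of Igfbp6 was 0.42% ± 0.0734 against 0.698% ± 0.0457. Those are the shares, of the 6, whose groups were apart, each with the smallest p that 3 against 3 allows in this exact test, 0.1. The pool as a whole was 32758 ± 1626 and 33287 ± 597 normalized counts per kilobase (exact permutation p = 0.7). The shares are free of scaling between libraries, but the members of one pool are not independent of each other.

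**Figure D3:**
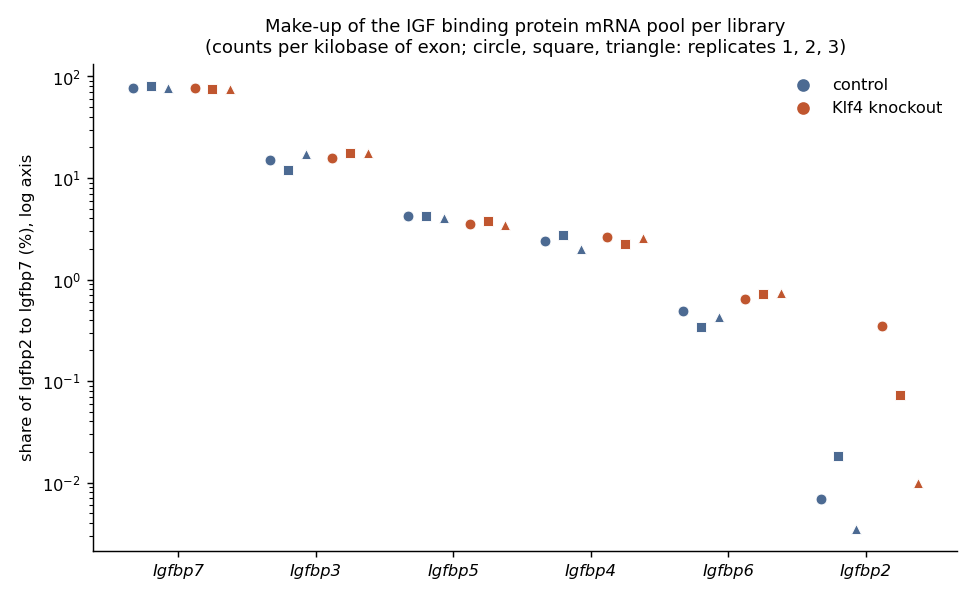
Share of each gene in the summed Igfbp2 to Igfbp7 level per library (vertical axis, percent of normalized counts per kilobase of exon, log axis) for 3 control and 3 knockout libraries. Igfbp7 and Igfbp3 make up most of the pool in all 6 libraries, and the shares of Igfbp5 and Igfbp6 separate the groups in opposite directions.

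Igfbp2 and Igfbp1 are carriers made in quantity by the liver, and in these islets both were near 0 in most libraries. Igfbp2 (chromosome 1, 72824503 to 72852474) had 4, 12 and 2 counts in control replicates 1 to 3 and 228, 44 and 6 in knockout replicates 1 to 3. Knockout replicate 1 was far above the rest, and knockout replicate 3 lay among the controls. The fitted log2 fold change of 3.92 ± 1.37 (SE) did not pass in DESeq2 (adjusted p = 0.116), and without knockout replicate 1 it was 2.12, with no adjusted p given. It passed without control replicate 2 (0.00883), knockout replicate 2 (0.0224) or knockout replicate 3 (4.19e-05), within 4.19e-05 to 0.333 across the unblocked alternatives.

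Igfbp1 (chromosome 11, 7197782 to 7202546), which is not among the 9 genes, had 0, 18 and 4 counts in controls and 259, 38 and 5 in knockouts (log2 fold change 3.74 ± 1.87 SE, DESeq2 adjusted p = 0.418; 1.62 without knockout replicate 1). Both genes were highest in knockout replicate 1 and next in knockout replicate 2. The summed hepatocyte markers were led by the same libraries. As examples, Alb was at 51331 and 1743 normalized counts in knockout replicates 1 and 2 and at 103 to 213 in the other 4, and Fga at 10509 and 256 against 0 to 6.36. Knockout replicate 2 was not high for all 8: Serpina1a, named after its values were seen, was at 80.4 there and at 25.9 to 159 in the other 4. DESeq2 gave an adjusted p to 2 of the 8, Apoa1 and Ahsg, and both passed higher, beside 1.53% of all genes. Neither passed in edgeR (adjusted p = 0.315 and 0.246). Apoa1 was at 5967 normalized counts in knockout replicate 1 and at 7.98 in knockout replicate 3, below every control (17.3 to 44.6). The part of liver RNA in the Igfbp2 and Igfbp1 counts was not tested. Each gene has a close neighbour among the binding proteins, with 5457 bases between Igfbp2 and Igfbp5 and 3539 between Igfbp1 and Igfbp3. In neither pair was the neighbour high in knockout replicate 1: Igfbp5 was at 7020 and Igfbp3 at 16379 normalized counts there, inside the range of the other 5 libraries.

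**Figure D4:**
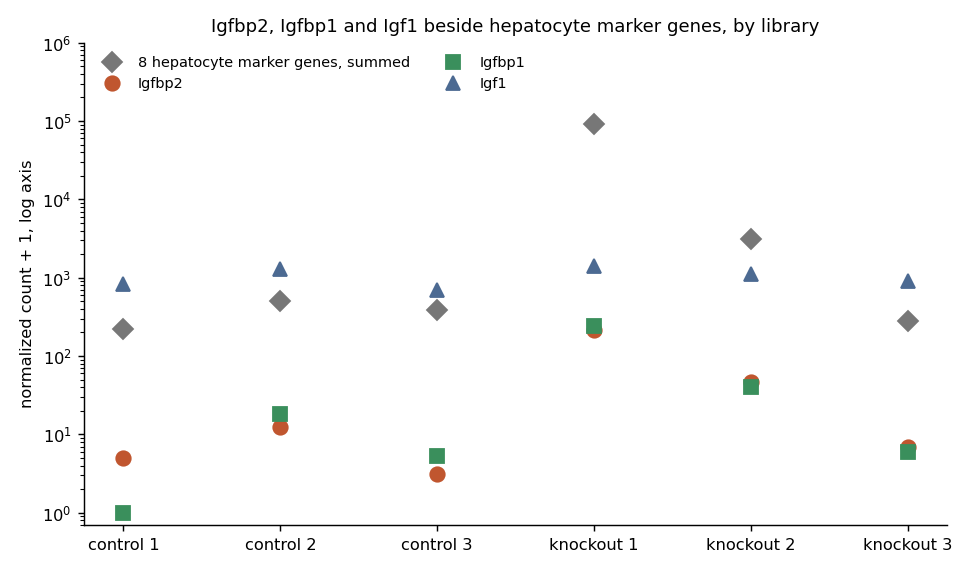
Normalized counts plus 1 (vertical axis, log scale) of Igfbp2, Igfbp1 and Igf1 and the sum of 8 hepatocyte marker genes in each of the 6 libraries. Igfbp2 and Igfbp1 are highest in knockout replicates 1 and 2, as is the hepatocyte sum at 92498 and 3075. Igf1 lies between 694 and 1426, and its highest library is also knockout replicate 1.

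The rest of the IGF system was read from fixed lists. Of 11 genes for other carriers and for proteases or inhibitors of carrier cleavage, 10 were given an adjusted p and 0 passed in DESeq2 or edgeR. An unadjusted DESeq2 p under 0.05 was found for 5 of the 10. Over all genes given an adjusted p, 2.19% passed in DESeq2 and 11.5% had an unadjusted p under 0.05. Igfals, which encodes the acid-labile subunit, was at 5952, 5127 and 9378 normalized counts in controls and at 6305, 5922 and 6460 in knockouts (log2 fold change -0.13 ± 0.27 SE, DESeq2 adjusted p = 0.943), and control replicate 3 stood apart. The next genes were chosen after their values were seen. Pappa2, a protease that cuts IGFBP3 and IGFBP5, was far more abundant per kilobase than its relative Pappa, at 3491 to 7435 against 11.4 to 33.6 over the 6 libraries. The log2 fold change was -0.39 ± 0.28 (SE) for Pappa2 and 0.78 ± 0.29 for Pappa, with DESeq2 adjusted p-values of 0.695 and 0.164. Stc2, an inhibitor of these proteases, was at 169, 184 and 182 normalized counts in controls and at 270, 270 and 218 in knockouts, without overlap (adjusted p = 0.2). Of 7 genes at the Igf2 and Igf2r loci or for Igf2 mRNA-binding proteins, 5 were given an adjusted p and 0 passed in either tool (0 also had an unadjusted p under 0.05).

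Growth hormone raises Igf1 through JAK2 and STAT5 in liver and other tissues. Of the 8 genes of that axis, 2 passed and both fell: Cish by 1.85 and Socs2 by 1.12 on the log2 scale (DESeq2 adjusted p = 0.000377 and 0.0279), beside 2.19% of all genes in both directions. Fold changes of the 8 were above 0 for 5 and below 0 for 3. Cish and Socs2 encode feedback inhibitors induced by STAT5. In edgeR their adjusted p-values were 0.0553 and 0.172, and across the unblocked alternatives the range was 8.42e-12 to 0.0553 for Cish and 5.66e-10 to 0.294 for Socs2. Socs3, a related inhibitor of cytokine signalling named here after its values were seen, pointed the other way without passing: it was at 1277, 1017 and 903 normalized counts in controls and at 1233, 1507 and 1884 in knockouts (0.53 on the log2 scale, adjusted p = 0.0692 in DESeq2). Ghr, the growth hormone receptor, also named later, was at 19749 to 20529 normalized counts in controls and 21401 to 22757 in knockouts, without overlap (log2 fold change 0.13 ± 0.062 SE, adjusted p = 0.408).

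**Figure D5:**
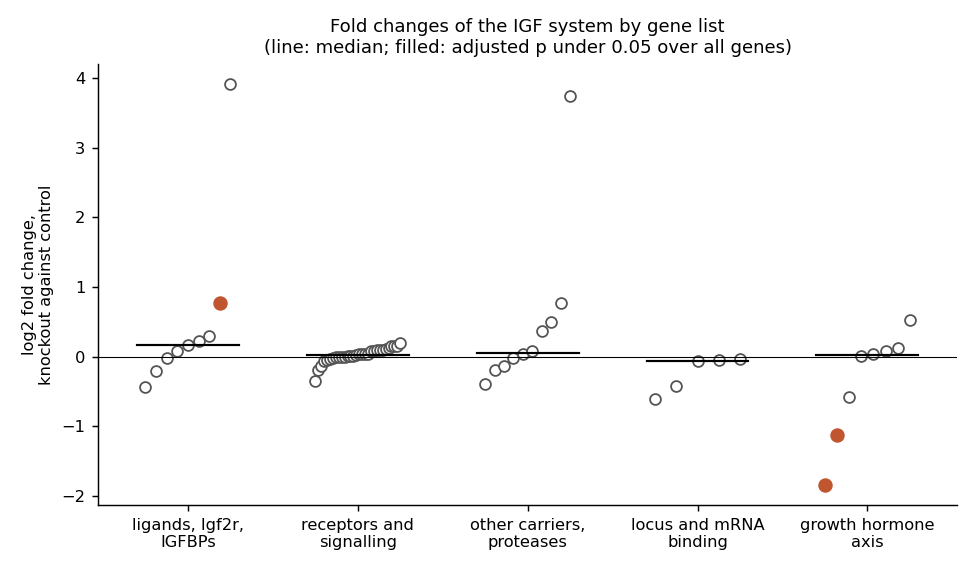
DESeq2 log2 fold changes (vertical axis, knockout against control) of the genes given an adjusted p in 5 lists of the IGF system; each point is a gene, lines are list medians and filled points passed an adjusted p of 0.05 over all genes. The passing genes are Igfbp6 among the ligands and carriers and Socs2 and Cish in the growth hormone axis.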

How the data were processed

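The authors deposited 1 table of raw counts per gene, and per the submitters' processing notes FastQC, STAR, featureCounts and DESeq2 were used with build mm10, the name of GRCm38 at UCSC. The file name adds cutadapt trimming; strand and pair settings are not given in the sources used here. Of the deposited counts from 1 to 10, 86.6% are even, which would follow if both mates of a pair were counted, so counting error may be larger than the counts show; fits on halved counts were added after seeing the data. All 55536 identifiers and symbols equal those of GENCODE M21, whose coordinates and union exon lengths were used.

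DESeq2 1.42.0 (R 4.3.3), the test the series' design text names, was fitted to all 6 libraries with genotype alone, on genes with at least 10 counts in total, with Benjamini-Hochberg adjustment over all genes and a threshold of 0.05. The spread is that between libraries, which the labels do not tie to single animals. edgeR 4.0.16 and the other alternatives are listed in the closing section. The genes, lists and tests were chosen with earlier results of these data known. Named genes are all 9 members, Klf4, Igf1r, Insr, Igfbp1, Igfals and H19, listed pathway genes past the threshold, and the 2 nearest patterns of each member that passed; others are stated as chosen later. Marker lists of duct, Schwann, adipocyte, beta, alpha and delta cells were also summed. In DESeq2, 2 of 6 duct genes and 1 of 1 testable adipocyte gene passed higher, beside 1.53% of all genes. Lower were 1 of 9 beta and 4 of 6 alpha genes, beside 0.657%, and 0 of 5 Schwann and 0 of 4 delta genes passed. In edgeR 0 passed in each of these lists. The adipocyte gene that passed was Fabp4, at 1490 to 2617 normalized counts. Adipoq and Plin1 were at 5.95 or below, and Lep and Cfd at 0 in all libraries.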

Additional observations from a re-analysis of the deposited data

How the results depend on the processing

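The alternatives were edgeR with TMM, TMM factors in DESeq2, no filter on low counts, a filter of at least 10 counts in at least 3 samples, no independent filtering, a term for the replicate number (the replicate block), halved counts, and fits without 1 library at a time. Of 117 log2 fold changes of the 9 genes in these fits, 102 had the sign and the call of the fit reported, 6 lost the call, 6 gained one and 3 changed sign. Those 3, and 1 of Igfals, were of genes that never passed. Without 1 library, Igf1r ran from 0.047 (no control replicate 2) to 0.18 (no control replicate 1), Igfbp4 from -0.025 (no control replicate 3) to 0.23, Igfbp7 from -0.059 to 0.043 (no control replicate 2; 0.001 with no knockout replicate 3) and Igfals from -0.30 to 0.17 (no control replicate 3).

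The count of the 9 genes past the threshold, 1, was 0 in edgeR and 0 to 3 when libraries were left out, with 0 without knockout replicate 1 and 3 (Igf2r, Igfbp3 and Igfbp6) without control replicate 3. Without control replicate 2, knockout replicate 2 or knockout replicate 3 the gene that passed was Igfbp2 in place of Igfbp6. Over all genes the count of 389 (272 higher, 117 lower) was 29 (24 and 5) in edgeR and ran from 153 without knockout replicate 1 to 952 without control replicate 3. The 0 signalling genes became 0 to 2 when libraries were left out (Foxo3 without control replicate 2; Foxo1 and Pik3r1 without control replicate 3), and the 0 carrier and protease genes 0 to 1 (Pappa without control replicate 1, Pappa2 without knockout replicate 2). The 2 growth hormone axis genes became 0 in edgeR and 1 to 2 when libraries were left out, 1 of them, Cish, remaining without control replicate 3 or knockout replicate 3, and Cish (lower) with Socs3 (higher) in place of Socs2 without control replicate 1 or knockout replicate 1. The causes were not tested. Without division by exon length the share differences were -2.17 percentage points for Igfbp5 and 0.171 for Igfbp6, in place of -0.601 and 0.279, which follows from the change of scale. Halved counts gave 323 genes in all, and Igfbp6 still passed (adjusted p = 0.0489).

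With the replicate number as a block, 405 genes passed, 281 of them shared with the fit without it. Of the 9 genes, Igfbp2 passed there (3.16, adjusted p = 0.0122) and Igfbp6 did not (0.77, adjusted p = 0.117), 1 carrier and protease gene passed (Pappa2) and 1 growth hormone axis gene (Cish). Over 15811 genes, the deviations of libraries with equal numbers from their group means had correlations of -0.048, -0.059 and 0.010. Such values over all genes cannot show whether libraries of equal number shared a litter or a day, and the labels give only the number. Depth limits scarce transcripts such as Igfbp2, with 2 to 12 counts per control library.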
